A study of Mus musculus with 6 samples.

Results

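The CC chemokines described here are Ccl2, Ccl5, Ccl7, Ccl8, Ccl9, Ccl11, Ccl17, Ccl20 and Ccl25, 9 of the 34745 genes in the count table. They were taken by gene name, and 8 of them carried enough counts to be tested, the exception being Ccl17. RNA was sequenced from primary renal fibroblasts of wild-type (WT) mice, the matrix-producing cells that grow out of digested kidney. The fibroblasts of both groups were first given 6 h to adhere. In 3 libraries they were then cultured alone and received no treatment. Their time in culture, and any insert above them, was not given. In the other 3 they were kept for 24 h beneath a transwell insert with 0.4 μm pores. Its upper chamber held induced Th17 cells, the helper T cells that secrete interleukin-17 (IL-17). The Th17 cells had been induced in vitro from CD4+ T cells of mouse spleen with a mixture of cytokines. Only the fibroblasts below the insert were collected, so the T cells shared their medium but not their surface. The sources used here do not say whether libraries of the same group stem from different wells, cultures or animals, so each SD, SE and p measures the spread between these libraries and may be technical. The age of the mice was not given either.

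Chemokines are small secreted proteins that bind to heparan sulfate on cell surfaces and matrix and attract leukocytes through G protein-coupled receptors. The CC class is named for a pair of adjacent cysteines near the start of the mature protein. Each ligand draws its own set of cells. Ccl2 and Ccl7 recruit monocytes through the receptor Ccr2, Ccl11 (eotaxin) recruits eosinophils through Ccr3, and Ccl20 recruits Th17 cells and other cells that bear Ccr6. In kidney disease, resident stromal and tubular cells are known sources of these signals, and the study was concerned with how Ccl20 brings Th17 cells into the inflamed tubulointerstitium. The comparison between fibroblasts alone and with Th17 cells asks how the chemokine transcripts of the fibroblast cultures stand once Th17 cells are present.

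The class mark is shown first, for the 7 members whose transcripts changed. Each line gives 42 coding bases 5′ to 3′ on build mm10 (GRCm38) from the GENCODE transcript numbered first, with the codons of the adjacent cysteines in capitals.
Ccl2 (chr11:82036500-82036541, plus strand, exon 2): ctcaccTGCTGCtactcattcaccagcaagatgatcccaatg
Ccl7 (chr11:82046532-82046573, plus strand, exon 2): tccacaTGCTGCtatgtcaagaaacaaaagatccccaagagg
Ccl11 (chr11:82061690-82061731, plus strand, exon 2): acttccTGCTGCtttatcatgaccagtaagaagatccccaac
Ccl8 (chr11:82116050-82116091, plus strand, exon 2): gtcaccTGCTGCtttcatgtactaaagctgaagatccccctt
Ccl5 (chr11:83529212-83529253, minus strand, exon 2): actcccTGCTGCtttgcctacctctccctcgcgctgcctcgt
Ccl9 (chr11:83575896-83575937, minus strand, exon 3): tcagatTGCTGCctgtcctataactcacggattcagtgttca
Ccl20 (chr1:83117807-83117848, plus strand, exon 2): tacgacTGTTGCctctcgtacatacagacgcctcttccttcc
All 9 members held 1 such pair of codons, and the 42 bases lay within 1 exon in each. Ccl20 was the member whose pair began with TGT instead of TGC. Outside this pair the coding sequences differed, which bears on how well reads could be assigned. In pairwise alignments the highest identity between members was 67.7%, for Ccl7 and Ccl11, and the lowest was 53.0%, for Ccl9 and Ccl25. For 8 members, no run of 50 bases in the first-numbered transcript occurred in the transcripts of another gene. In Ccl9, 59 of 2957 such runs did. Ccl2 and Ccl25 each overlap a gene on the opposite strand. Whether the authors counted by strand was not given in the sources used here, so reads of these overlapping pairs cannot be told apart. The partner of Ccl2 was at 0 counts in all 6 libraries. That of Ccl25, Elavl1, had 1183, 1248 and 1166 counts alone and 1529, 1465 and 1594 with Th17 cells, far more than Ccl25 itself, and it rose slightly (log2 fold change 0.28, edgeR adjusted p = 0.00797), so the low counts of Ccl25 are uncertain.

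The whole table set the frame for these values. Library totals lay between 12050529 and 13209581 counts, and the groups were sequenced to similar depth. At this depth 3 counts, used as the floor below which no fold change is given, equalled 0.223 to 0.254 CPM (counts scaled to a common library total after TMM correction for differences in composition). The floor is a fixed count and does not include the spread between libraries. All 6 libraries were distinct, with a chi-square per gene of at least 6.07 within a group and at least 74.9 between groups. The median log2 fold change of all 13088 genes tested was 0.00.

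Some CC chemokine transcripts were higher in the renal fibroblast cultures kept with Th17 cells and others were lower. Since the time of the lone cultures and any insert above them were not given, these cannot be told apart from the Th17 cells. Ccl11, Ccl8, Ccl7 and Ccl2 rose, Ccl5, Ccl9 and Ccl20 fell, and for Ccl25 no difference was detected. Of the 8 tested members 4 rose and 3 fell at an adjusted p below 0.05 in edgeR's quasi-likelihood test, which called 17.1% of all genes tested higher and 20.0% lower. With the added limit of a fold change above 2, which is the rule of the study's methods, 2 members rose (Ccl11 and Ccl8) and the same 3 fell. The corresponding shares of all genes tested were 3.87% higher and 7.78% lower. CPM ranges were separate between groups for the 4 members that rose and the 3 that fell, where 24.3% of all genes tested were higher without overlap and 26.1% lower. The median log2 fold change of the 8 members was 0.29. In bulk RNA, fewer cells of a type and less RNA per cell cannot be told apart, here or in any result that follows.

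**Figure D1:**
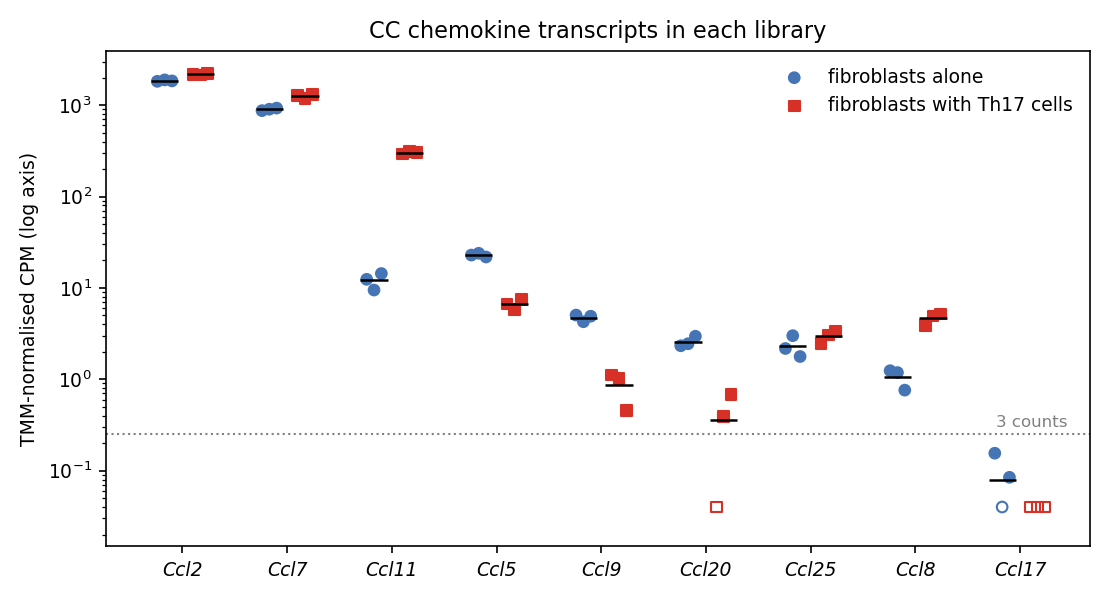
TMM-normalised CPM of each CC chemokine (log axis) in the 3 libraries of fibroblasts alone (circles) and the 3 with Th17 cells (squares), with black bars at the group means, open symbols for libraries at 0 counts, and a dotted line at the highest CPM that 3 counts has in a library. Ccl11 moved from 12.1 to 302 CPM, Ccl2 and Ccl7 stayed the highest in both groups, and Ccl17 lay below the line throughout.

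Ccl11, the eosinophil attractant, changed most. Its counts were 160, 120 and 170 in fibroblasts alone and 3932, 3983 and 3971 with Th17 cells. The cocultured libraries were close together and far above every lone library, and the lone libraries varied more relative to their mean. Expression rose from 12.1 ± 2.46 to 302 ± 10.3 CPM (SD, n = 3 each), an increase of 25.0-fold with a 95% interval of 20.4 to 30.7. On the log2 scale this was 4.65 ± 0.131 (SE), with an edgeR adjusted p = 3.72e-08, the 23rd highest of the 13088 genes tested.

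Ccl8 (monocyte chemoattractant protein 2) was a low transcript that also rose. Its counts were 16, 15 and 9 alone and 52, 63 and 68 with Th17 cells. Each cocultured library exceeded each lone library by more than the range within either group. The mean went from 1.06 ± 0.263 to 4.66 ± 0.699 CPM (SD, n = 3 each). The 4.33-fold increase (95% interval 2.89 to 6.51) corresponded to 2.12 ± 0.259 on the log2 scale (SE), with an edgeR adjusted p = 0.000222.

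The abundant monocyte attractants rose by much less. Ccl7 had 11231, 11445 and 10995 counts alone and 17156, 15021 and 17197 counts in coculture. All 3 cocultured libraries were higher, with replicate 2 the lowest of them. The step from 902 ± 29.0 to 1254 ± 66.7 CPM (SD, n = 3 each) was 1.39-fold (95% interval 1.27 to 1.53), or 0.48 ± 0.0587 on the log2 scale (SE), with an edgeR adjusted p = 0.000232. Ccl2 had 23511, 23941 and 21807 counts alone against 29280, 27133 and 29390 with Th17 cells. The groups again did not overlap, but the gap was small. Mean Ccl2 was 1853 ± 34.3 CPM alone and 2181 ± 52.4 CPM with Th17 cells (SD, n = 3 each), 1.18-fold higher (95% interval 1.09 to 1.27). Its log2 fold change of 0.24 ± 0.049 (SE) had an edgeR adjusted p = 0.00487. Neither of these members reached a fold change of 2.

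Ccl5 (RANTES), which attracts T cells and monocytes, fell. Its counts were 295, 303 and 258 alone and 90, 74 and 98 with Th17 cells. No cocultured library came near the lowest lone one. The mean decreased from 22.9 ± 1.06 to 6.65 ± 0.822 CPM (SD, n = 3 each), 3.43-fold lower, at −1.78 ± 0.125 on the log2 scale (SE), with an edgeR adjusted p = 5.82e-06.

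Ccl9 (macrophage inflammatory protein 1 gamma), a ligand of Ccr1 made mainly by myeloid cells, fell too. It had 65, 54 and 58 counts in fibroblasts alone and 15, 13 and 6 counts in coculture. The 3 cocultured libraries were all lower, replicate 3 most of all. From 4.74 ± 0.415 to 0.864 ± 0.356 CPM (SD, n = 3 each) the decrease was 5.43-fold, at −2.44 ± 0.297 on the log2 scale (SE; 95% interval −3.11 to −1.77), with an edgeR adjusted p = 0.000215.

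Ccl20, the Ccr6 ligand that attracts Th17 cells, was a minor transcript of these cultures and fell. Its 30, 31 and 35 counts alone compared with 0, 5 and 9 in coculture. Every cocultured library was below every lone library, and they ranged from no count to above the floor of 3 counts. Mean expression was 2.58 ± 0.335 CPM alone and 0.359 ± 0.344 CPM with Th17 cells (SD, n = 3 each), so the log2 fold change was −2.82 ± 0.569 (SE), with a wide 95% interval of −4.11 to −1.53 and an edgeR adjusted p = 0.00411. The size rested on single cocultured libraries, being −2.23 without replicate 1 and −3.68 without replicate 3. On the log2(FPKM + 1) scale, which understates changes of low genes, limma gave −0.86 for Ccl20 and −0.94 for Ccl9.

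Ccl25 and Ccl17, which in the body serve lymphocyte homing to the gut and thymus and to skin, gave no change that could be measured. Ccl25 had 28, 38 and 21 counts alone and 33, 39 and 44 counts with Th17 cells. The groups overlapped. Its mean was 2.32 ± 0.626 CPM alone and 2.95 ± 0.457 CPM with Th17 cells (SD, n = 3 each). The log2 fold change was 0.35 ± 0.26 (SE) with an edgeR adjusted p = 0.335, and its 95% interval of −0.24 to 0.93 does not show that the groups were alike. Ccl17 had 2, 0 and 1 counts alone and 0 in each cocultured library. Both groups were at or under the floor, so a difference was not detectable at this depth and no fold change is given.

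**Figure D2:**
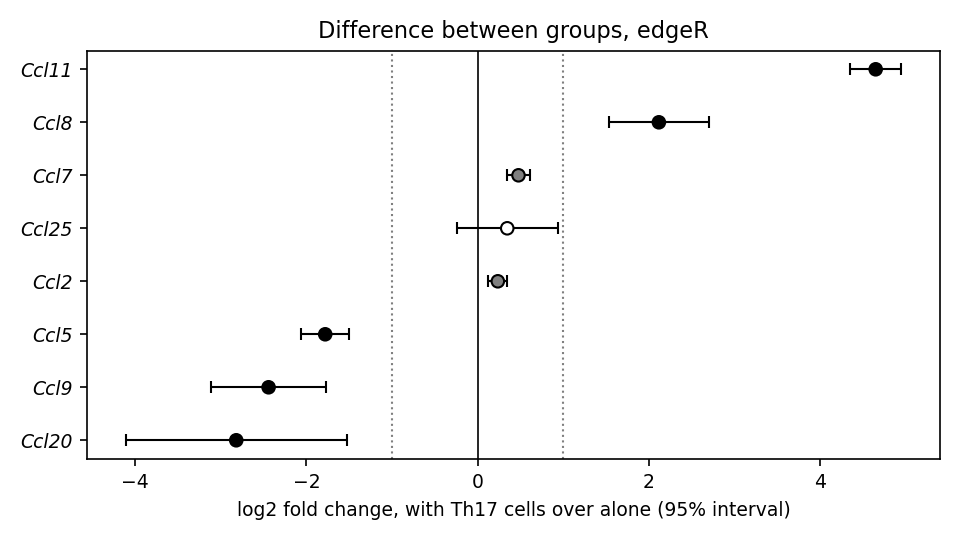
Log2 fold change of the 8 tested CC chemokines, with Th17 cells over alone, with its 95% interval from edgeR; black points passed an adjusted p of 0.05 and a fold change of 2 (dotted lines), grey points passed the adjusted p only and the white point did not pass. Ccl11 (4.65) and Ccl8 (2.12) stand to the right of the limit, Ccl5 (−1.78), Ccl9 (−2.44) and Ccl20 (−2.82) to the left.

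Levels of different genes were compared per length, on the scale of the deposited FPKM (fragments corrected for gene length and for depth). In fibroblasts alone the order was Ccl7 (1101 ± 38.9 FPKM), Ccl2 (950 ± 18.1), Ccl5 (18.7 ± 0.829), Ccl11 (10.9 ± 2.25), Ccl8 (2.03 ± 0.498), Ccl9 (1.44 ± 0.126), Ccl20 (1.09 ± 0.145), Ccl25 (0.583 ± 0.157) and Ccl17 (0.152 ± 0.148, SD, n = 3 each). Neighbours in this order had separate values except Ccl8 and Ccl9. With Th17 cells Ccl11 took the third place at 286 ± 8.76 FPKM and Ccl8 the place after it at 9.33 ± 1.41. Ccl5 dropped behind both, to 5.67 ± 0.736 FPKM. Ccl25 (0.778 ± 0.122), Ccl9 (0.274 ± 0.112), Ccl20 (0.158 ± 0.152) and Ccl17 (0) closed the order, and the values of Ccl9 and Ccl20 overlapped, as did those of Ccl20 and Ccl17.

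The first 2 places depend on the length used. The FPKM of Ccl2 was computed over 1909 bases, the summed length of its 2 transcripts, whereas the first-numbered transcript has 813. With 813 bases Ccl2 stood at 2230 ± 42.5 FPKM alone and 2743 ± 83.4 FPKM with Th17 cells, above Ccl7 in both groups. The same step raised Ccl5 to 42.1 ± 1.87 and 12.8 ± 1.66 FPKM (1200 and 532 bases), which put it above Ccl8 with Th17 cells. It also raised Ccl25 to 2.14 ± 0.576 FPKM alone, where Ccl25, Ccl8, Ccl20 and Ccl9 then overlapped from each to the next. Among all 34745 genes, mean deposited FPKM placed Ccl7 22nd alone and 13th with Th17 cells, Ccl2 29th and 22nd, and Ccl11 3563rd and 103rd.

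Adding the 9 members gives the CC chemokine pool of the cultures. It was 2742, 2839 and 2820 CPM in fibroblasts alone and 3759, 3639 and 3863 CPM with Th17 cells. The cocultured sums were all higher, at 3754 ± 112 against 2800 ± 51.3 CPM (SD, n = 3 each). Ccl2 held 66.2% ± 0.686 of the pool alone and 58.1% ± 0.387 in coculture, while Ccl7 held 32.2% ± 0.667 and 33.4% ± 0.854. These are shares of counts, with no correction for length, and do not rank the genes per length. On the deposited FPKM, Ccl7 stood at 1.16 ± 0.0362 times Ccl2 alone and 1.37 ± 0.0439 times with Th17 cells. That order depends on the length used, as described above. Ccl11 went from 0.432% ± 0.0897 to 8.06% ± 0.461 of the pool (SD, n = 3 each), and the shares of Ccl2 and Ccl11 did not overlap between the groups. For every 100 counts of Ccl2 there were 0.654 ± 0.141 counts of Ccl11 alone and 13.9 ± 0.699 with Th17 cells. The corresponding numbers for Ccl7 were 48.7 ± 1.52 and 57.5 ± 1.84 counts, and neither ratio overlapped between the groups.

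The members that rose lie next to one another in the genome, and so do Ccl5 and Ccl9. This arrangement was noticed after the values were known and is given as a description. On chromosome 11 of mm10, Ccl2 (chr11:82035571-82037453), Ccl7 (chr11:82045712-82047525), Ccl11 (chr11:82057823-82062955) and Ccl8 (chr11:82115185-82116799) are all on the plus strand within 79.6 kb between the first and last gene starts, and these are the 4 members that rose. Between Ccl11 and Ccl8 lies Ccl12, which had 2 counts in 1 lone library and 0 in the others. Sizes differed widely along the row, as Ccl7 rose by 0.48 and its neighbour Ccl11 by 4.65 on the log2 scale. A second group begins at Ccl5 (chr11:83525778-83530518, minus strand), with Ccl9 (chr11:83572919-83578636, minus strand) 47.1 kb away by gene start and then Ccl6, Ccl3 and Ccl4. All 5 genes of that group fell. At the same adjusted p limit, 17.1% of all genes tested rose and 20.0% fell. The tested genes on the other side of Ccl5 were Taf15 (log2 fold change −0.31, edgeR adjusted p = 0.00302), Mmp28 (−0.29, edgeR adjusted p = 0.254) and Rasl10b (−0.94, edgeR adjusted p = 0.244), which were chosen for their position. Ccl20 is alone on chromosome 1 (chr1:83116766-83119167), and Ccl17 and Ccl25 are on chromosome 8.

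**Figure D3:**
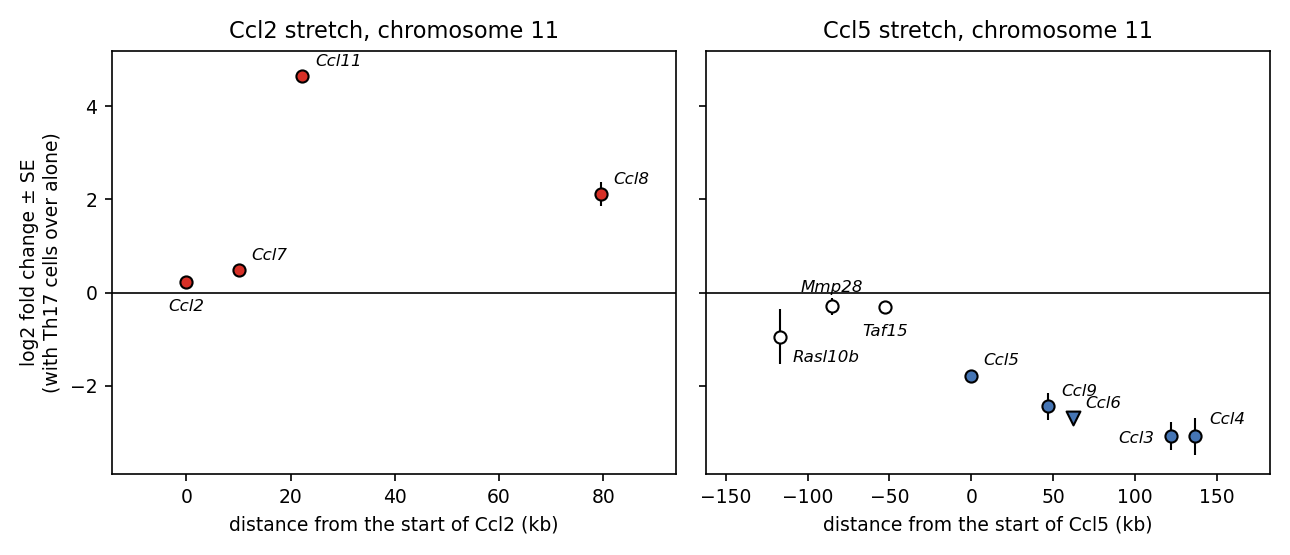
Log2 fold change (with Th17 cells over alone, bars are SE) of the tested genes in the 2 chemokine groups of chromosome 11 against distance in kb from the start of Ccl2 (left) or Ccl5 (right); red circles are CC ligands that rose, blue ones CC ligands that fell, white ones other genes, and the triangle is Ccl6 at its bound, since it had no count in coculture. All 4 ligands on the left lie above 0 and all 5 on the right below it. Of all genes tested, 17.1% were called higher and 20.0% lower.

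Promoter sequences from RefSeq (GRCm38.p6) were matched for Ccl8, Ccl9, Ccl17, Ccl20 and Ccl25, and those of the other 4 members were not used here. The 250 bases before the annotated start are shown for the 3 of these whose transcripts changed, each on its gene's strand, with matches to the searched motifs in capitals.
Ccl8 (chr11:82114935-82115184, plus strand): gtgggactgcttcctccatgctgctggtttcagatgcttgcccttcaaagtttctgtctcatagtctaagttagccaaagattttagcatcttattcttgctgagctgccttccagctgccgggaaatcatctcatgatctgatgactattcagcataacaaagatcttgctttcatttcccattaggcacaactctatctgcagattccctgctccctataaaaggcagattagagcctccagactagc
Ccl9 (chr11:83578637-83578886, minus strand): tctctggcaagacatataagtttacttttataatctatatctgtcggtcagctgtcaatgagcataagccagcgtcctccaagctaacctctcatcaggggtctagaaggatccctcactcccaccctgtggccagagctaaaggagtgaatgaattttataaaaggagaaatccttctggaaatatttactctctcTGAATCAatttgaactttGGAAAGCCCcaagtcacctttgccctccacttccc
Ccl20 (chr1:83116516-83116765, plus strand): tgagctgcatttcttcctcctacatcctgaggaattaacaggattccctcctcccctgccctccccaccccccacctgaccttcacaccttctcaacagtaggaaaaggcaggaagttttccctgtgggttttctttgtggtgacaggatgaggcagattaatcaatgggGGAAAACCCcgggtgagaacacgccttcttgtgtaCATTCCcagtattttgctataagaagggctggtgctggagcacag
Both strands were searched for κB (GGNNTTTCC), the interferon-stimulated response element (AAANNGAAA), AP-1 (TGANTCA), TEAD (GGAATG) and the gamma-activated site (TTCNNNGAA). Ccl20 held a κB match at −80 and a TEAD match at −45 relative to its start, both on the opposite strand. Ccl9 held a κB match at −35 on the opposite strand and an AP-1 match at −53. Ccl8 held no match. Among 32851 RefSeq promoters, windows of the same length held κB in 4.93%, the interferon element in 9.37%, AP-1 in 6.75%, TEAD in 12.6% and the gamma-activated site in 7.02%. A match describes letters, not binding.

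The rest of the CC ligand family was mostly silent. Of 16 further ligands, 15 were in the table, 8 were at 0 counts in every library and 3 were tested. All 3 fell past the fold limit, as did 7.78% of all genes tested. Their median log2 fold change was −3.08 when Ccl6 was placed at its bound and −3.09 as fitted. Ccl3 (macrophage inflammatory protein 1 alpha) had 46, 68 and 50 counts alone and 8, 5 and 7 with Th17 cells (−3.09 ± 0.30 on the log2 scale, edgeR adjusted p = 5.03e-05). Ccl4 (macrophage inflammatory protein 1 beta) had 20, 19 and 20 counts against 2, 2 and 3 (−3.08, SE 0.394, edgeR adjusted p = 0.000293). The cocultured counts of Ccl4 were at or under the floor, so the size of its fall is uncertain. Ccl6 had 20, 19 and 18 counts alone and 0 in each cocultured library, at least 6.47-fold lower against 3 counts in a library (edgeR adjusted p = 0.000332). Like the members that fell, all 3 had separate groups, where 26.1% of all genes tested were lower without overlap.

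Receptors for these ligands were nearly absent from the fibroblasts. Of 11 CC receptors, 5 were at 0 counts in all 6 libraries, among them Ccr2 and Ccr6, the receptors of Ccl2 and Ccl20, and 4 more never exceeded 3 counts. Ccr1, a receptor of Ccl5, Ccl7 and Ccl9, was the one receptor tested. It had 8, 10 and 11 counts alone and 17, 28 and 43 with Th17 cells. All cocultured libraries were higher, with a wide spread among them (log2 fold change 1.52 with SE 0.409, edgeR adjusted p = 0.0173). The atypical receptors bind chemokines or related ligands without classical signalling. Of 5 listed, 2 were tested, 1 rising and 1 falling. For both receptor lists the shares of all genes tested were 17.1% higher and 20.0% lower. Past the fold limit these shares were 3.87% and 7.78%. Ackr3 rose, with 140, 134 and 130 counts alone and 238, 261 and 193 in coculture (0.70, SE 0.139, edgeR adjusted p = 0.00367). Ccrl2, which binds the attractant chemerin, fell from 206, 239 and 241 counts to 25, 26 and 29 (−3.17, SE 0.162, edgeR adjusted p = 7.23e-07).

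Of 10 genes that trim or display the chemokine proteins, all tested, 8 fell and none rose, where 20.0% of all genes tested fell. Past the fold limit 2 of them fell (7.78% of all genes), and the median log2 fold change was −0.48. Ext2 (−0.09, edgeR adjusted p = 0.365) and Ndst1 (−0.08, edgeR adjusted p = 0.36) were not called, and their groups overlapped. Dpp4, the protease that clips the first residues of Ccl5 and Ccl11, had 39, 51 and 50 counts alone and 5, 4 and 2 with Th17 cells (−3.70, SE 0.354, edgeR adjusted p = 4.52e-05). The heparan sulfate carrier Sdc4 had a log2 fold change of −1.32 ± 0.0722 (SE), with an edgeR adjusted p = 1.11e-06.

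Among 22 regulators known to act on chemokine transcription or transcript stability, 3 rose, 7 fell and 12 were not called, with a median log2 fold change of −0.14. Of all genes tested 17.1% rose and 20.0% fell. Past the fold limit 1 regulator rose and 4 fell, where 3.87% of all genes tested rose and 7.78% fell. The one riser past the fold limit was Zc3h12a, the gene of the ribonuclease Regnase-1, which degrades inflammatory transcripts. It had 1525, 1543 and 1446 counts alone and 3473, 3416 and 3385 with Th17 cells (1.11, SE 0.0562, edgeR adjusted p = 6.79e-07). Those that fell past the limit included Irf7 (−1.92), Irf1 (−1.54) and Stat2 (−1.30), all factors of interferon signalling, with edgeR adjusted p of 7.99e-08, 1.6e-05 and 1.17e-06. They fell in the same libraries as Ccl5, whose gene interferon induces. Their part in the fall of Ccl5 was not tested.

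**Figure D4:**
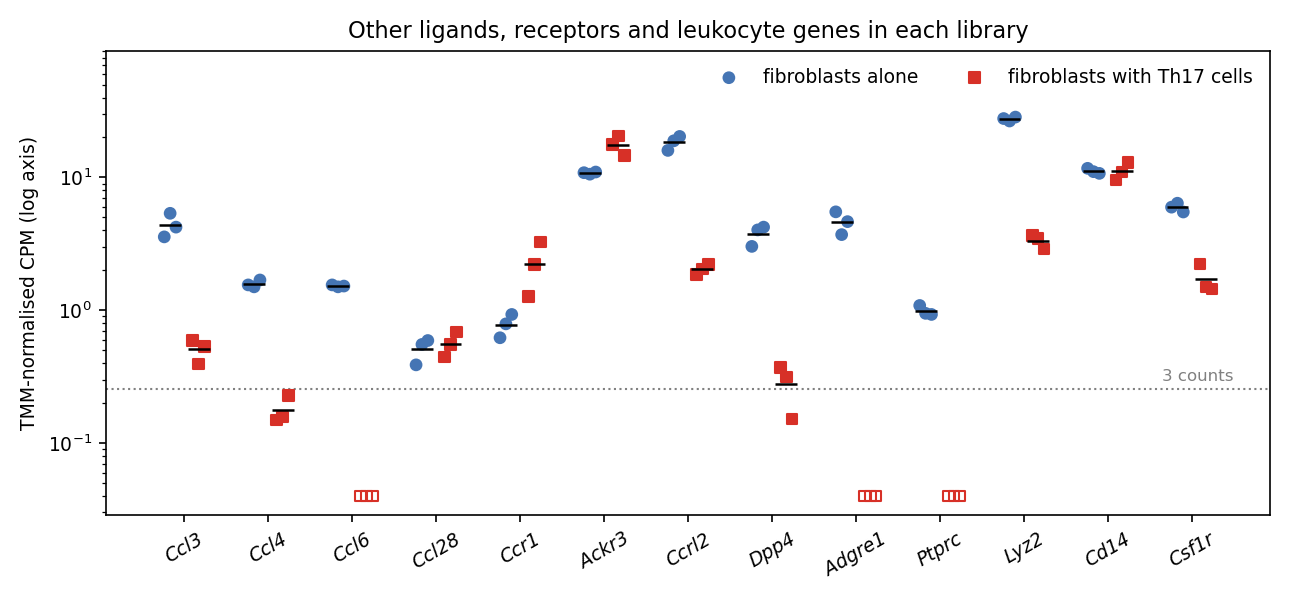
TMM-normalised CPM (log axis) of other ligands, receptors, Dpp4 and leukocyte genes in each library, drawn as in the plot of the members, with open symbols for libraries at 0 counts and a dotted line at 3 counts. Ccl3, Ccl4, Ccl6, Ccrl2, Dpp4, Adgre1, Ptprc, Lyz2 and Csf1r were lower in all 3 cocultured libraries, Ccr1 and Ackr3 were higher, and Ccl28 and Cd14 overlapped.

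Markers of other cell types were examined beside the members because leukocytes make Ccl3, Ccl4, Ccl6 and Ccl9 in quantity. Of 18 macrophage and dendritic cell markers, 8 were tested, of which 7 fell, 5 past the fold limit, and none rose. Among all genes tested 20.0% fell, and 7.78% fell past the fold limit. Their median log2 fold change was −1.92 with genes at 0 placed at their bound and −2.42 as fitted, and their summed level was 75.7 to 77.4 CPM alone and 30.6 to 32.6 CPM with Th17 cells. Adgre1, which encodes F4/80, had 71, 47 and 55 counts alone and 0 in each cocultured library, and Csf1r had 77, 81 and 65 counts against 30, 19 and 19. C1qa was at 0, 5 and 3 counts alone and at 0 in coculture. Lyz2 fell by 3.05 on the log2 scale (edgeR adjusted p = 2.07e-07), and Ptprc, Cd74 and Adgre1 were the other members of the list past the fold limit besides Csf1r. Cd14 was tested and not called, with 151, 140 and 127 counts alone and 129, 140 and 170 in coculture. The 7 markers that fell moved with Ccl5, Ccl9, Ccl20, Ccl3, Ccl4 and Ccl6, and their part in those results was not tested.

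T cell markers were mostly at or near the floor, with Lck, Trac and, at lower counts, Cd28 as exceptions. Cd28, which was not tested, had 15, 8 and 9 counts alone and 6, 3 and 5 with Th17 cells. The counts of each list below stand beside 17.1% of all genes tested that rose and 20.0% that fell. Past the fold limit these shares were 3.87% and 7.78%. Il17a was at 0 counts in all 6 libraries, Cd4 never exceeded 2 counts, and Cd3e had 1, 1 and 0 counts alone and 0, 0 and 6 in coculture. Of 14 T cell markers 6 were at 0 throughout and 2 were tested, of which Lck fell, with 49, 68 and 59 counts alone and 33, 34 and 23 with Th17 cells (log2 fold change −1.04, edgeR adjusted p = 0.00755). Trac, a T cell receptor chain, had 20, 40 and 38 counts alone and 41, 27 and 38 in coculture, and the groups overlapped (log2 fold change 0.03, edgeR adjusted p = 0.948). The summed list was at 6.98 to 9.32 CPM alone and 5.03 to 6.02 CPM with Th17 cells. Of 11 epithelial markers 3 were tested and 2 fell, Krt19 (log2 fold change −2.63) and Lrp2 (−2.36), with Epcam at 4 counts or fewer in every library and sums of 19.2 to 21.0 against 3.58 to 4.56 CPM. Of 7 endothelial markers 3 were tested, Flt1 rising (log2 fold change 1.31) and Kdr falling (−5.34). Kdr had 65, 74 and 68 counts alone and 2, 1 and 2 in coculture, at or under the floor, so the size of its fall is uncertain. Pecam1 was at 20, 8 and 18 counts against 19, 18 and 15. The list summed to 121 to 128 against 269 to 306 CPM, most of it Flt1, with means of 117 and 291 CPM. The 11 fibroblast markers were all tested, and 9 fell while 1 (Dcn) rose, with a median of −0.53 and sums of 36054 to 37915 against 15950.4 to 17907 CPM. Past the fold limit fell Col3a1 (−2.18), Col1a2 (−1.43), Col1a1 (−1.27) and Lum (−1.24). Col1a1, the defining matrix gene of these cells, had 202700, 192458 and 168972 counts alone and 87428, 83040 and 74446 with Th17 cells, so the label of the cells was borne out in both groups. The part of these lists in the chemokine results was not tested.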

How the data were processed

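RNA-seq libraries of 3 samples of fibroblasts alone and 3 with Th17 cells were grouped by their titles. According to the study's methods and the submitters' processing notes, the authors passed raw reads through a Seqtk filter, used HISAT2 2.0.4 for alignment to mm10 and StringTie 1.3.3b for counting. The deposited table holds raw fragment counts per gene and library. The FPKM values that the authors deposited with the counts implied, in 10934 genes with enough counts, the same gene length in all libraries (within 0.1%), so they carry no TMM factor. How strand and reads shared between genes were handled was not given in the sources used here. Every row named a gene, and for 59 symbols present more than once the most counted row was taken.

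Counts were tested in R 4.3.3 with edgeR 4.0.16 (filterByExpr with a minimum count of 10, TMM factors of 0.976 to 1.03, glmQLFit, glmQLFTest) on all 13088 genes that passed, with Benjamini-Hochberg adjustment over them. The biological coefficient of variation was 11.6%. Calls used an adjusted p below 0.05 alone or with a fold change above 2. Each SE was derived from the log2 fold change and its F statistic. Intervals are at 95%. Folds against a group at 0 counts are bounds at 3 counts in a library. Intervals cover counting error and the spread of these libraries only, as no molecular identifiers are described. The floor is a fixed count. The scripts were tested on simulated data. Alternatives were DESeq2 1.42.0, relative log expression, library size only and upper quartile factors, no filter, at least 10 counts in every library, a replicate block, limma 3.58.1 on log2(FPKM + 1), glmTreat, no fold limit and leaving out each library. Levels per length from the first-numbered GENCODE transcript were added after seeing the data. Positions in the table equalled GENCODE (GRCm38) for every member but Ccl17. Python 3.11.15, pandas 2.3.3 and matplotlib 3.10.9 served for tables and plots.

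The members and lists were chosen with earlier results of these data known. All members are named. From other lists the text names genes past both limits whose higher group averaged 10 counts or more (at most 5 per list), ligands and receptors with 10 counts in a library, and Cd3e, Cd4, Il17a, Adgre1, Csf1r, C1qa, Epcam, Pecam1 and Col1a1. Ackr3, Ccr2, Ccr6, Ccl12, Ccl28, Cd14, Cd28, Trac, Ext2, Ndst1, Elavl1, Rasl10b, Mmp28 and Taf15 were named after their values were seen. Some genes of these lists are not reported here.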

Additional observations from a re-analysis of the deposited data

How the results depend on the processing

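All 109 log2 fold changes recomputed for the 8 tested members kept their direction and their side of an adjusted p of 0.05, those of Ccl25 being on the far side of it throughout. They ranged from 4.50 to 4.78 for Ccl11, 1.77 to 2.24 for Ccl8, 0.45 to 0.54 for Ccl7, 0.22 to 0.30 for Ccl2, −1.87 to −1.56 for Ccl5, −2.67 to −0.94 for Ccl9, −3.68 to −0.86 for Ccl20 and 0.17 to 0.58 for Ccl25 (adjusted p from 0.168 to 0.659). The counts of 2 members called higher and 3 called lower held in each of the 6 fits that left out 1 library. With at least 10 counts required in every library, 1 was higher and 1 lower, because Ccl8, Ccl9 and Ccl20 then go untested. With no limit on fold change 4 were higher. With limma on log2(FPKM + 1) 1 was lower, since the pseudocount holds low genes under the fold limit. With library size only, the summed CPM of fibroblasts alone was 2739.6 ± 56.0.

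Libraries of the 2 groups shared replicate numbers, and whether they were paired by them was not given in the sources used here. Same-numbered libraries correlated in their deviations from the group means by 0.0157, −0.0256 and −0.0036. With so few libraries these values cannot show whether same-numbered libraries shared a culture or animal. With a replicate block 2 members were called higher and 3 lower, as without it, and Ccl20 was at −2.89 (edgeR adjusted p = 0.00872). Depth limits Ccl17 and the size of the change in Ccl20, both of which have libraries at 0 counts.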
